A study of Mus musculus with 3 samples.

Results

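Sebaceous gland lipid genes are described here as a set of 9 genes, Mc5r, Scd1, Scd3, Elovl3, Far2, Awat1, Awat2, Soat1 and Dgat2, among 21881 genes listed at every age. They were chosen by name, for their parts in making wax, sterol ester and triglyceride or, in Mc5r, for receiving the hormone signal of the sebocyte, and all 9 were found in the tables. Earlier results of these data were known when the set was chosen, so its counts beside those of all genes describe the set and test nothing. RNA was sequenced from whole skin of the inbred mouse strain FVB at 3 ages, in embryos on day 18.5 (E18.5), in newborns on day 3 after birth (P3) and in adults of 10 weeks. The column headings name the animals as wild type (WT), no treatment is given in the labels, and no source used here gives the body site or sex of the animals. Each age has 1 value per gene, which its heading calls an average, made from 2 biological replicates by the design text of the series. Values of single animals were not used here, so no value below carries an error and no difference has a p-value or a replicate check.

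Values are FPKM, fragments counted per length of transcript and per number of mapped fragments. They are relative to each library, so a difference between ages also depends on the other RNA in the libraries and on the scaling. A sebaceous gland is an outgrowth of the hair follicle whose cells, the sebocytes, fill with lipid droplets and burst to release sebum onto the hair and skin. Mouse sebum is rich in wax esters, sterol esters and triglycerides. Fatty acids are first desaturated and elongated, some are reduced to fatty alcohols, and acyltransferases then join acyl chains to an alcohol, a sterol or a diacylglycerol. Because whole skin was sequenced, fewer cells of a type and less RNA per cell cannot be told apart in any value below. Several of these genes are also used by other cells of skin, Scd1 and Dgat2 by fat cells, Soat1 by macrophages and Elovl3 by brown fat.

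All 9 genes were higher in adult than in embryonic skin, but they reached their adult level in different steps. Higher and lower here mean a difference of at least 1 in log2(FPKM + 1), which is 2-fold on that scale and understates the change of low genes. From E18.5 to P3, 7 of 9 rose (Awat1, Awat2, Elovl3, Mc5r, Far2, Soat1 and Dgat2) and 0 fell, against 9.56% of 14653 genes compared that rose and 9.42% that fell. Their median log2 difference was 1.69, and that of all genes compared was 0.03. The count of 7 depends on the setting. It was 5 with a pseudocount (the FPKM added before the log) of 5 in place of 1, and 5 with a 3-fold threshold. Upper-quartile scaling gave 6 and a pseudocount of 0.1 gave 8. From P3 to 10 weeks, 5 of 9 rose (Scd1, Scd3, Awat1, Awat2 and Far2) and 1 fell, Elovl3, against 19.8% of all genes that rose and 9.98% that fell. The median was 1.97 for the 9 genes and 0.14 for all. Between E18.5 and 10 weeks all 9 rose, with a median of 3.61 against 0.22 for all genes, of which 16.1% rose and 6.92% fell. Scd3 and Awat2 were under 1 FPKM at E18.5 and entered the comparisons with it through a later age. These comparisons share the values of each age, so they are not separate evidence. With upper-quartile scaling in place of the deposited one, higher genes as a share of all called went from 50.4% to 37.4% between E18.5 and P3 and from 69.9% to 57.0% between E18.5 and 10 weeks.

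**Figure D1:**
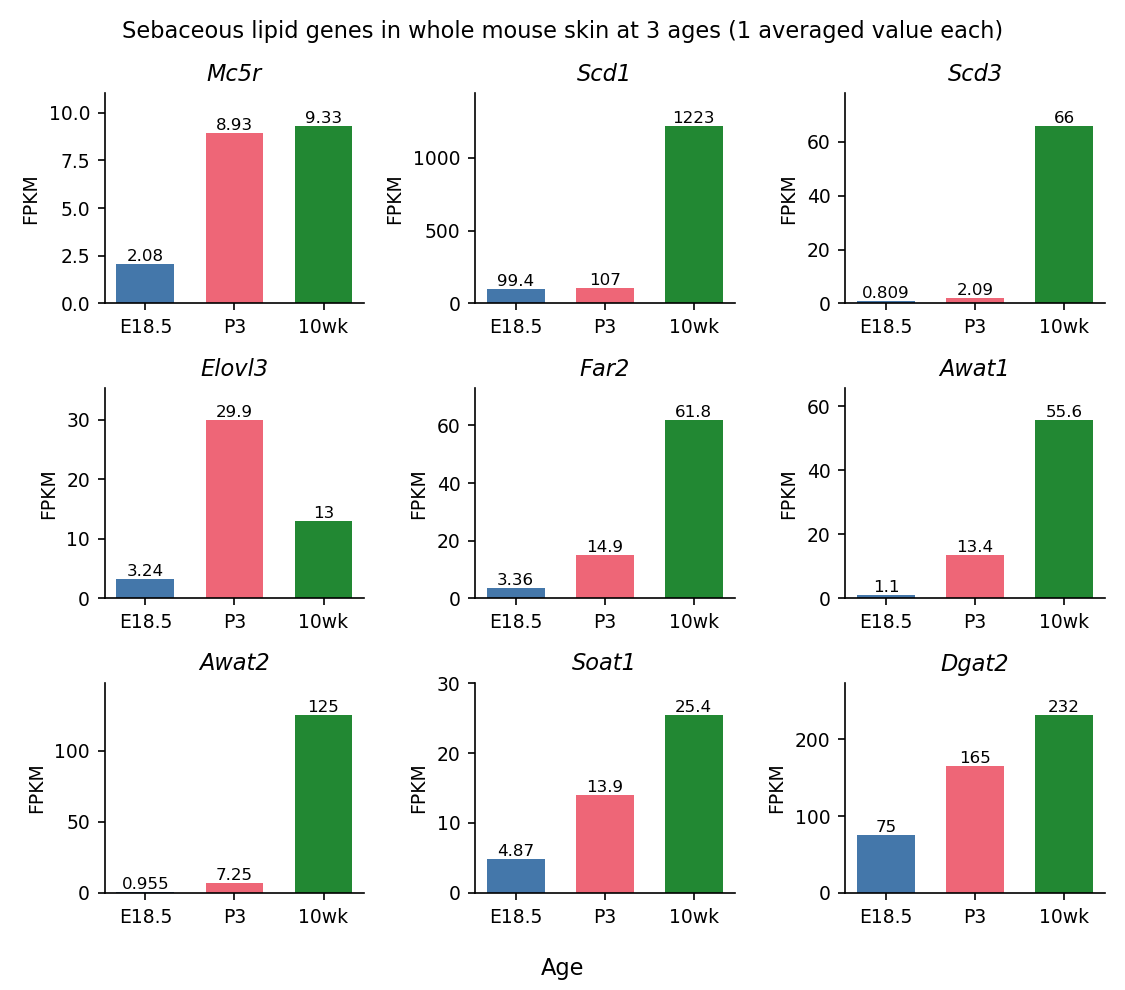
Level of each of the 9 genes in whole skin (vertical axis, FPKM from 0, a scale of its own in each panel) at E18.5, P3 and 10 weeks; each bar is the 1 averaged value deposited per age, with no error available. Scd1 and Scd3 stand far below their own 10-week values at E18.5 and P3, although Scd1 is at 99.4 and 107 FPKM there. Elovl3 is highest at P3 (29.9 FPKM), and Mc5r is nearly level between P3 (8.93) and 10 weeks (9.33).

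The summed level of the 9 genes was 190.8 FPKM in the embryo, 362.6 at P3 and 1810 in the adult. Scd1 and Dgat2 made up most of it, with Scd1 at 52.1%, 29.5% and 67.5% of the sum at the 3 ages and Dgat2 at 39.3%, 45.6% and 12.8%. Without this pair, the other 7 genes summed to 16.4 FPKM, 90.4 and 356. At E18.5 the order from high to low was Scd1, Dgat2, Soat1, Far2, Elovl3, Mc5r, Awat1, Awat2 and Scd3, and only Scd1 and Dgat2 reached 10 FPKM. At P3 Dgat2 stood above Scd1, and 6 of 9 genes reached 10 FPKM. At 10 weeks the order was Scd1, Dgat2, Awat2, Scd3, Far2, Awat1, Soat1, Elovl3 and Mc5r, and 8 of 9 did so, all but Mc5r. With no spread between animals, it cannot be said which neighbours in these orders differ.

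Mc5r (mm9 chromosome 18, 68497257 to 68499365) encodes the melanocortin 5 receptor, through which melanocortin peptides act on sebocytes, and mice without it secrete less sebum. It stood at 2.08 FPKM in the embryo, 8.93 at P3 and 9.33 in the adult. The level rose 4.28-fold before P3 (log2 difference 1.69) and differed by 0.06 on the log2 scale after it, so that P3 and 10 weeks were well within 2-fold of each other. With a pseudocount of 5 FPKM in place of 1 the first difference was 0.98, just under the threshold. The other melanocortin receptors followed other courses. Mc1r, the receptor of pigment cells, stood at 2.23, 8.58 and 0.953 FPKM, so that it rose to P3 beside Mc5r and fell again in the adult. Mc2r, the corticotropin receptor, which fat cells carry too, was at 5.14, 1.26 and 6.58 FPKM and thus fell and rose. Its accessory protein gene Mrap had the same shape at 44.1, 8.74 and 36.9 FPKM. Mc3r and Mc4r did not exceed 0.0309 and 0.0220 FPKM at any age, with Mc4r listed at 0 at P3 and at 10 weeks. Mc5r held 22.0% of the summed FPKM of the 5 receptors in the embryo, 47.5% in the newborn and 55.2% in the adult. Of the ligand side, the precursor gene Pomc was at 0.409, 0.171 and 0.139 FPKM, under 1 FPKM throughout.

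Scd1 and Scd3 encode stearoyl-CoA desaturases, which place a double bond in saturated acyl chains, and loss of Scd1 leaves mice of the asebia strains with stunted sebaceous glands. Scd1 (chromosome 19, 44468940 to 44482199) stood at 99.4 FPKM in the embryo, 107 at P3 and 1223 in the adult. It stayed within 2-fold across birth (log2 difference 0.10, which turns to -0.11 with upper-quartile scaling and was under the threshold in both) and rose 11.4-fold after it (3.50). In rank by FPKM among all genes it went from place 799 in the embryo and 786 in the newborn to 78 in the adult. Scd3 (chromosome 19, 44277778 to 44318506) stood at 0.809, 2.09 and 66.0 FPKM. Across birth its log2 difference of 0.77 was under the threshold, although the plain ratio was 2.58 and a pseudocount of 0.1 FPKM gave 1.27. From P3 to 10 weeks it rose 31.7-fold (log2 difference 4.44), place 133 among the 14655 genes compared. This was the largest rise of the 9 genes in the step, but with a pseudocount of 5 FPKM the differences of Scd1 (3.46) and Awat2 (3.41) were above that of Scd3 (3.33).

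The desaturase genes lie in a row within 204422 bases of chromosome 19 in the order Scd3, Scd2, Scd4 and Scd1, with no other gene listed between them, and the row did not move as 1. Scd2, a desaturase abundant in brain, stood at 132 FPKM in the embryo, 123 at P3 and 62.6 in the adult, a fall between E18.5 and 10 weeks (log2 difference -1.07). Scd4 stayed under 1 FPKM, at 0.352, 0.292 and 0.612. Scd2 thus held 56.9% of the summed FPKM of the 4 genes at E18.5 and 52.9% at P3, and Scd1 42.6% and 46.1%. At 10 weeks Scd1 held 90.4%, Scd3 4.88% and Scd2 4.63%. The ratio of Scd1 to Scd3 was 123 in the embryo, 51.2 in the newborn and 18.5 in the adult. Of the whole list of 8 desaturases, 7 reached 1 FPKM at some age, and of these only Scd1 and Scd3 rose between P3 and 10 weeks, while Fads3 and Fads6 rose between E18.5 and P3.

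Because Scd1 and Scd3 are so alike, their coding sequences are shown where they differ most and where they do not differ, since reads from identical stretches cannot be assigned to either. The sequences come from the GENCODE M21 transcripts (GRCm38 build, a later build than that of the tables), and capitals mark the bases that differ. Over 90 aligned coding bases with the most differences, 20 differed (coding bases 292 to 381 of Scd1 and 304 to 393 of Scd3, counted from the start codon):
Scd1: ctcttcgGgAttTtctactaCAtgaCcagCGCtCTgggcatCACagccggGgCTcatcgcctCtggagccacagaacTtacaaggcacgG
Scd3: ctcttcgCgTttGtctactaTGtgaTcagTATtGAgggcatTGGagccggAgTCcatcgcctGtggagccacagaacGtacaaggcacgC
A stretch of the same length with 0 differences (coding bases 463 to 552 of Scd1, 475 to 564 of Scd3) was:
Scd1 and Scd3: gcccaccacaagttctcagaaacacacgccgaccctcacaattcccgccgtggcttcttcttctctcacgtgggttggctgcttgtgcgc
Over the whole coding sequence 974 of 1065 aligned bases were identical (91.5%), against 90.3% between Scd1 and Scd2. Of all 50-base windows of the whole Scd3 transcript, 4.85% occur unchanged in that of Scd1. Only exact matches were counted, so windows that differ at a few bases are left out of this share. No source used here gives the read length or how reads with more than 1 match were counted, and how far Scd1 reads entered the Scd3 value was not tested.

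**Figure D2:**
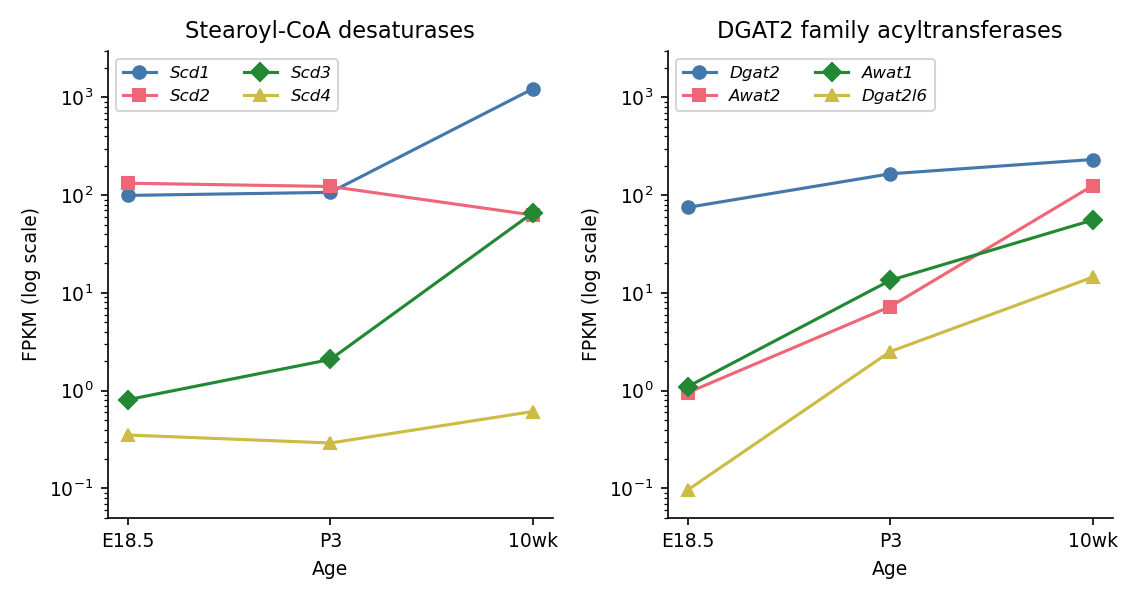
Levels of the stearoyl-CoA desaturases (left) and of 4 acyltransferases of the DGAT2 family (right) at E18.5, P3 and 10 weeks; the vertical axis is FPKM on a log scale, each point is the 1 deposited value per age, and lines join the values of a gene. Scd3 climbs from 0.809 to 66.0 FPKM to meet Scd2, which ends at 62.6, and Awat2 crosses above Awat1 between P3 (7.25 against 13.4) and 10 weeks (125 against 55.6).

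Elovl3 encodes an elongase of saturated and monounsaturated very long acyl chains, and mice without it have sparse hair and altered sebum. It was the only one of the 9 with its highest value at P3, at 3.24 FPKM in the embryo, 29.9 at P3 and 13.0 in the adult. It rose 9.24-fold to P3 (log2 difference 2.87, place 167 of 14653), above Awat1 on the log2(FPKM + 1) scale (2.78) but below it in plain ratio, which was 12.2 for Awat1. The fall after P3 was 2.30-fold (log2 difference -1.14), and with a pseudocount of 5 FPKM it was -0.96 and no longer past the threshold. The span listed for Elovl3 (chromosome 19, 46206389 to 46222815) is shared with Pitx3, so these are the bounds of a joint locus. Among markers of brown fat, which also uses Elovl3, 0 of 6 expressed rose and 4 fell before P3 (median -3.03), and 4 rose and 1 fell after it (median 1.43). The uncoupling protein gene Ucp1, which defines brown fat, stood at 64.5, 2.54 and 0.0308 FPKM. Ucp1 fell before P3, where Elovl3 rose, and was the marker that fell after P3, where Elovl3 fell too. Among the 4 markers that rose after P3 were Cox8b (316, 17.2 and 402 FPKM), Cox7a1 (231, 14.9 and 198) and Cidea (121, 25.6 and 86.9). The part of brown fat in the Elovl3 values was not tested.

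Of the elongase family, 5 of 6 expressed members rose between E18.5 and P3 (Elovl1, Elovl3, Elovl4, Elovl6 and Elovl7) and 0 fell, and between P3 and 10 weeks 2 rose and 2 fell. Elovl1, an elongase of the epidermal barrier, was also highest at P3, at far higher levels than Elovl3, 139, 353 and 135 FPKM. It returned to its embryonic level (log2 difference -0.05 between E18.5 and 10 weeks), whereas Elovl3 stayed above its own (1.72). Elovl4, which makes the ultra-long chains of barrier ceramides, stood at 67.1, 291 and 308 FPKM and so kept its P3 level. Elovl6, which takes palmitate to stearate and so supplies the substrate of the desaturases, rose in both steps, at 13.7, 57.3 and 127 FPKM. Elovl5 stood at 21.9, 25.5 and 92.7 FPKM, within 2-fold across birth and higher in the adult like Scd1. Elovl3 held 1.24%, 3.68% and 1.84% of the summed FPKM of the family at the 3 ages.

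Far2 encodes a fatty acyl-CoA reductase, which makes the fatty alcohols of wax esters. It stood at 3.36 FPKM in the embryo, 14.9 at P3 and 61.8 in the adult, and rose in nearly equal steps of 4.42-fold and 4.16-fold (log2 differences 1.86 and 1.98). Its relative Far1, a peroxisomal reductase that cells in general use for ether lipids, changed by less than 2-fold in every comparison, at 21.3, 20.1 and 27.3 FPKM. The ratio of Far1 to Far2 was 6.34 in the embryo and 1.35 in the newborn, and in the adult Far2 was 2.27 times Far1. The tables list Far2 with a joint span (chromosome 6, 147995938 to 148392874) that also covers 4732416N19Rik, Ergic2, Rps4y2 and Tmtc1.

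Awat1 and Awat2 encode acyl-CoA wax alcohol acyltransferases, which join an acyl chain to a fatty alcohol and so form the wax ester. Awat1 (chromosome X, 97767586 to 97773545) stood at 1.10 FPKM in the embryo, 13.4 at P3 and 55.6 in the adult, with log2 differences of 2.78 and 1.97 between successive ages. Awat2 (chromosome X, 97597561 to 97607901) stood at 0.955, 7.25 and 125 FPKM, with differences of 2.08 and 3.93. Both rose in both steps, Awat1 more before P3 and Awat2 more after it. Awat2 had the largest rise of the 9 genes between E18.5 and 10 weeks, 131-fold (log2 difference 6.01, place 27 of the 14659 genes compared), although its E18.5 value is under 1 FPKM and its precision is unknown. The ratio of Awat2 to Awat1 was 0.867, 0.539 and 2.25 at the 3 ages.

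Between them lies Dgat2l6, another member of the same acyltransferase family (chromosome X, 97720177 to 97741447), and it too rose in both steps, at 0.0967, 2.51 and 14.5 FPKM. The stretch from Awat2 to Awat1 spans 175985 bases and holds 5 listed genes. The remaining pair did not share the course: Igbp1, a phosphatase regulator, stayed within 2-fold at 57.5, 52.9 and 50.9 FPKM, and Otud6a was listed at 0, 0.0903 and 0. Awat1 and Awat2 are less alike than the desaturases, with 64.6% identical aligned coding bases, and 0 of the 50-base windows of either transcript occur in the other.

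The sequences before the start sites of these 3 acyltransferase genes are shown because the genes lie together and rose together. They are the 250 bases upstream of the annotated start from the RefSeq promoter table (GRCm38.p6 build), which held 5 of the 9 genes, and of the 2 starts of Awat2 the downstream one is shown. Capitals mark a CCAAT box, which reads ATTGG on the strand shown and is the only searched motif found in them. Awat1 is chrX:100571997-100572246 on the plus strand, Dgat2l6 is chrX:100524588-100524837 on the plus strand and Awat2 is chrX:100412588-100412837 on the minus strand:
Awat1: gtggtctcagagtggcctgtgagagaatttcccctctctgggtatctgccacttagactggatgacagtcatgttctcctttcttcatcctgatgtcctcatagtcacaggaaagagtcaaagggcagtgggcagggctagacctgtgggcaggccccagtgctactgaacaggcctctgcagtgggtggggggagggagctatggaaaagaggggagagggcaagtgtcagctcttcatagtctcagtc
Dgat2l6: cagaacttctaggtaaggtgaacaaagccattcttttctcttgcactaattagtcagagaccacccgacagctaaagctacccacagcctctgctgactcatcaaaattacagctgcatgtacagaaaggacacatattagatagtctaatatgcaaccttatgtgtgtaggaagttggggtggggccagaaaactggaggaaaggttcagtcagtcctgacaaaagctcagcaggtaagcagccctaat
Awat2: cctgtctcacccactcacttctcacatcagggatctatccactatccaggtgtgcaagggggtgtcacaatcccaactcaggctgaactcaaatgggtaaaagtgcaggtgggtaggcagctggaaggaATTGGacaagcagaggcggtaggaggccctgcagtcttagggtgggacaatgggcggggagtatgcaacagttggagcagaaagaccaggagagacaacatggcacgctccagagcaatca
The motifs searched on both strands were the TATA box TATAAA, the CCAAT box CCAAT, the E-box CACGTG, the nuclear receptor half-site AGGTCA and a sterol regulatory element, TCACNCCAC. The 32851 promoters of the table, cut to the same 250 bases, hold them in 12.4%, 33.8%, 6.02%, 14.0% and 1.05% of cases. Of 6 windows of the 9 genes (Scd3, Awat1, Far2, Soat1 and both starts of Awat2), 3 held a CCAAT box, those of Soat1 and both of Awat2, and 0 held any of the others. A match is a string of letters, not a bound site.

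Soat1 and Dgat2, whose products esterify sterols and complete triglycerides, rose before P3 and changed by less than 2-fold after it. Soat1 (chromosome 1, 158358239 to 158404459) stood at 4.87 FPKM in the embryo, 13.9 at P3 and 25.4 in the adult, with log2 differences of 1.35 and 0.82. Its relative Soat2, the enzyme of liver and gut, stayed under 1 FPKM. Dgat2 (chromosome 7, 106302173 to 106331223) stood at 75.0, 165 and 232 FPKM, with differences of 1.13 and 0.48. Both first-step calls are near the threshold: Soat1 was at 0.94 with a pseudocount of 5 FPKM, and Dgat2 at 0.92 with upper-quartile scaling. Dgat1, the unrelated enzyme with the same reaction, had another course at 29.4, 15.3 and 35.7 FPKM, and the ratio of Dgat2 to Dgat1 was 2.55, 10.8 and 6.49. Among 8 expressed acyltransferases of neutral lipids, 5 rose and 0 fell between E18.5 and P3, and again 5 and 0 between P3 and 10 weeks, the second 5 being Awat1, Awat2, Dgat2l6, Dgat1 and Mogat1.

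**Figure D3:**
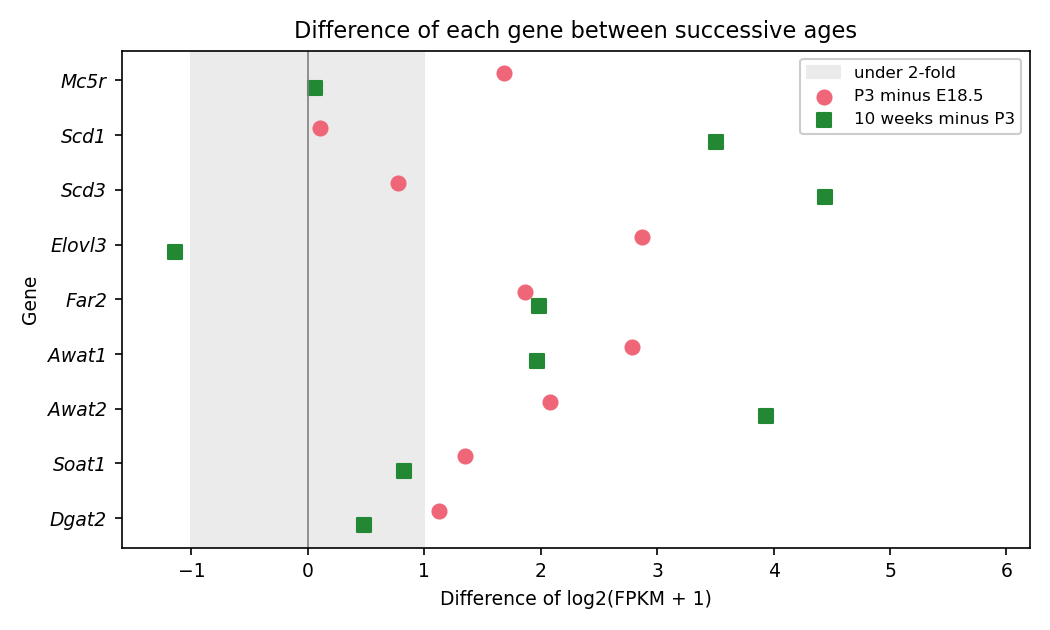
Difference of log2(FPKM + 1) (horizontal axis) for each of the 9 genes (vertical axis), with circles for P3 minus E18.5 and squares for 10 weeks minus P3; the grey band marks differences under 2-fold, and no error is available. Scd1 and Scd3 have only the second step past the band, Mc5r, Soat1 and Dgat2 only the first, Far2, Awat1 and Awat2 both, and Elovl3 lies past it on opposite sides (2.87 and -1.14). At some other settings the first step of Mc5r, Soat1, Dgat2 and Scd3 and the second of Elovl3 fall on the other side of the threshold.

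Over the 3 ages the courses fell into sets by the steps that passed the threshold at the main setting. Several places in these sets depend on that setting. With a pseudocount of 5 FPKM the first step of Mc5r (0.98) and Soat1 (0.94) and the fall of Elovl3 (-0.96) no longer passed. Dgat2 lost its first step with upper-quartile scaling (0.92), and Scd3 gained one with a pseudocount of 0.1 FPKM (1.27). To measure likeness, the distance between log2(FPKM + 1) profiles over the 3 ages was taken after each gene's mean was subtracted. The closest pair among the 9 was Soat1 and Dgat2 (distance 0.40), followed by Mc5r and Dgat2 (0.41) and Mc5r and Soat1 (0.54). Awat1 was nearest to Far2 (0.74) and Awat2 to Scd3 (0.93). Elovl3 and Scd3 were farthest apart (3.99). Among other genes with at least 5 FPKM at some age, the nearest to Far2 were Mir30d (0.02), Dgat2l6 (0.14) and Cyp1a1 (0.23). Nearest to Awat1 were Gm5538 (0.23), the transcription factor gene Egr1 (0.26) and Cyp2g1 (0.37), and nearest to Awat2 were Fosb (0.27), Neu2 (0.33) and Fos (0.47). Elovl3 had Rnf39 (0.04), Acpp (0.07) and Pla2g2e (0.07) beside it. Nearest to Scd1 were the immunoproteasome gene Psmb9 (0.02), Ankrd23 (0.05) and the MHC gene H2-D1 (0.05), and to Scd3 Mir215 (0.11), Aldh1a1 (0.18) and Fxyd2 (0.33). Profiles of 3 values separate genes only coarsely, and a small distance says no more than that these values run side by side.

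Genes of the sebaceous lineage did not move together. Of 11 expressed among 12 listed, 5 rose and 2 fell between E18.5 and P3 (median 0.97), and 3 rose and 2 fell between P3 and 10 weeks (median -0.11). Fa2h, the fatty acid 2-hydroxylase of sebocytes and epidermis, stood at 1.02, 33.4 and 63.7 FPKM and thus had most of its rise before P3, as Mc5r did. Acsbg1, an acyl-CoA synthetase, kept its P3 level, at 18.8, 84.1 and 78.1 FPKM. Srd5a1, which makes the androgen dihydrotestosterone and stands in a separate androgen list, not among these 12, rose and fell, at 9.23, 20.3 and 8.35 FPKM. Pparg, a nuclear receptor needed by sebocytes and fat cells alike, stood at 45.1, 10.6 and 39.6 FPKM, lowest at P3 where 7 of the 9 genes had risen. Prdm1, a repressor linked to sebocyte progenitors and terminal differentiation, was at 9.32, 21.5 and 4.84 FPKM.

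The enzymes that supply fatty acid did not share the first step. Among 10 genes of fatty acid synthesis and its regulators, 0 rose and 3 fell between E18.5 and P3 (median -0.69), and 6 rose and 0 fell between P3 and 10 weeks (median 1.21). Fasn, fatty acid synthase, stood at 68.4, 34.1 and 117 FPKM. Thrsp was at 288, 6.80 and 200 FPKM and Mlxipl, a carbohydrate-responsive activator, at 5.11, 0.865 and 10.7. Genes of the earlier steps of glycerolipid synthesis were mixed, with 2 of 11 higher and 2 lower in the first step and 3 and 2 in the second. Agpat5 stood at 40.7, 77.2 and 16.8 FPKM, whereas Lpin1, a phosphatidate phosphatase, was at 10.7, 2.87 and 17.7. Lipid droplet proteins fell in 5 of 10 cases and rose in 0 before P3 (median -0.77), then rose in 7 and fell in 0 (median 1.73). Plin4 stood at 14.0, 12.5 and 108 FPKM and Fitm1, abundant in muscle, at 11.9, 1.31 and 58.6. All 6 lipases rose after P3, and Pnpla5 was the only one that rose before it as well, at 0.150, 4.88 and 31.4 FPKM.

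Other cell types of the skin moved between the same ages, and their values are given beside the 9 genes. White adipocyte markers, none of them at 0, fell in 11 of 15 cases and rose in 1 between E18.5 and P3 (median -1.47), while Dgat2 rose and Scd1 stayed within 2-fold. Their summed level was 6692, 2102 and 11029 FPKM at the 3 ages, with the adipocyte hormone gene Adipoq at 326, 68.8 and 509. Between P3 and 10 weeks all 15 rose (median 2.45), with log2 differences from 1.20 for Fabp4 to 4.78 for Cfd, in the step in which the log2 difference of Scd1 was 3.50 and that of Dgat2 0.48. Between E18.5 and 10 weeks 6 of 15 rose and 0 fell (median 0.86), against all 9 lipid genes. In that comparison all 10 macrophage markers (median 2.43) and all 10 skeletal muscle markers (median 3.57) rose as well. Of expressed basal keratinocyte, hair shaft and brown adipocyte markers, 2 of 6, 2 of 8 and 0 of 6 did. The part of fat cells in the Scd1 and Dgat2 values was not tested. Macrophage markers fell in 6 of 10 cases and rose in 0 between E18.5 and P3, the step in which Soat1 rose, and all 10 rose between P3 and 10 weeks (median 3.29, summed level 176, 71.8 and 1573 FPKM). The part of macrophages in the adult value of Soat1 was not tested. Skeletal muscle markers ran from 4489 to 383 and 22858 FPKM in sum, so that they took a larger share of the adult library. Basal keratinocyte markers rose in 4 of 6 cases before P3 and fell in 2 after it, with summed levels of 2566, 5953 and 2557 FPKM. The defining markers of hair shaft rose in 8 of 8 cases and fell again in 8 of 8, whereas only Elovl3 among the 9 lipid genes rose and fell. The part of these shifts in the values of the 9 genes was not tested.

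**Figure D4:**
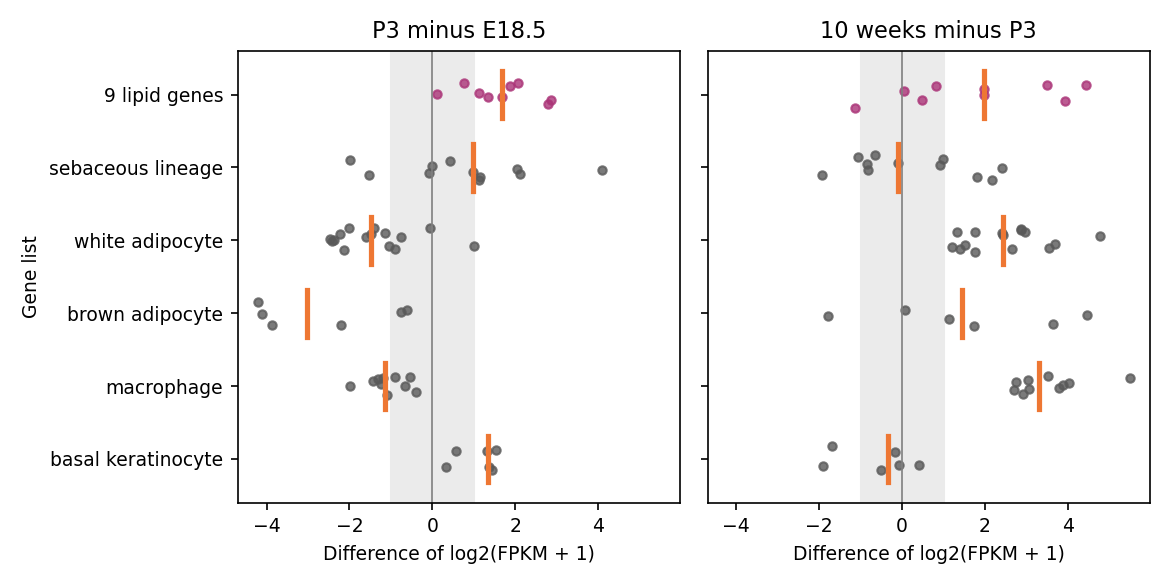
Differences of log2(FPKM + 1) (horizontal axis) between P3 and E18.5 (left) and between 10 weeks and P3 (right) for the 9 lipid genes and for marker lists of other skin cells (vertical axis); each point is a gene, shifted up or down at random for visibility, the orange line is the list median, and the grey band marks differences under 2-fold. In the left panel the 9 genes have a median of 1.69 and white adipocyte markers one of -1.47, and in the right panel both are positive, at 1.97 and 2.45.

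The libraries also differed in sex-linked RNA, which bears on Awat1 and Awat2 because they lie on the X chromosome. Xist, the RNA of the inactive X of females, stood at 0.0433 FPKM in the embryo, 64.6 at P3 and 73.0 in the adult, and the Y-linked Eif2s3y at 42.1 and 0.0838 FPKM and then listed at 0. Age and this male or female pattern cannot be told apart in any comparison with E18.5, but P3 and 10 weeks shared the female pattern. Among 479 X-linked genes compared, 5.43% rose between E18.5 and P3 (median -0.13) and 19.4% between P3 and 10 weeks (median 0.14). Awat1, Awat2 and Dgat2l6 rose in both steps.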

How the data were processed

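Processed tables of 3 whole-skin samples were used, 1 per age. Per the file headers, the deposited values are FPKM averaged over replicates by the authors. The tools were Cufflinks 2.1.1 and TopHat2 2.0.7 and the build mm9, per the submitters' processing notes. No source used here gives the annotation, strand setting or read numbers, so depth and the precision of low values are unknown. The status of all 9 genes was OK at every age. Values of other genes listed at 0 with a failure mark (3 at E18.5, 7 at P3) were left out.

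Differences of log2(FPKM + 1) were taken over genes that reached 1 FPKM at any age and called at 2-fold, with no test, since each age has 1 value. Tabled starts count from 0 (end minus start equalled the RefSeq length for 5 of the 9 genes), so 1 was added. The 9 genes and all 17 other gene lists were chosen with earlier results of these data known; 1 of 148 list entries, Asip, was not matched, and 5 genes stand in more than 1 list. The values of 1 listed gene are not reported here. All 9 genes were named, with up to 4 genes per other list by the largest difference between successive ages, all relatives of the 9, and the 3 nearest profiles of a gene. Soat2, Dgat1, Pomc, Pparg, Prdm1, Adipoq and Fabp4 fall outside this rule and were chosen after their values were seen. The arithmetic of the calls was checked on simulated data without noise, with changes set in well-expressed genes only. That check does not measure how firm the calls are. Python 3.11.15, pandas 2.3.3 and Biopython 1.88 were used. Alternatives covered the pseudocount, filter, scaling, threshold, sex chromosomes and failure marks.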

Additional observations from a re-analysis of the deposited data

How the results depend on the processing

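Of 264 single-gene differences of the 9 genes under the 10 alternatives, 256 kept their call, 8 lost or gained it and 0 called values changed sign. The alternatives for the filter, sex chromosomes and failure marks leave the difference of a remaining gene as it was. Their calls were kept by construction, so 256 of 264 overstates how firm the calls are. With a pseudocount of 5 FPKM, 0 of the 9 genes were lower at 10 weeks than at P3, and all genes higher and lower numbered 842 and 626 from E18.5 to P3, 1596 and 898 from P3 to 10 weeks, and 1274 and 561 from E18.5 to 10 weeks. A 3-fold threshold likewise left 0 of the 9 lower at 10 weeks than at P3, and gave 605 and 586, 1632 and 744, and 1183 and 572. A pseudocount of 0.1 FPKM gave 2155 genes lower at P3 than at E18.5. Without chromosomes X and Y, which removes Awat1 and Awat2, 3 of the remaining 7 were higher at 10 weeks than at P3. Scaling on the median of ratios shifts log2 ratios by -0.12 from E18.5 to P3 and -0.10 from P3 to 10 weeks, the upper quartile by -0.22 and -0.08 and equal sums by -0.02 and -0.12. The differences of Scd1 across birth and of Mc5r after P3 are within such shifts and turn sign under some of them. No paired analysis was possible because each age has 1 averaged value. Depth is unknown, so no limit can be set for Scd3, Awat1 and Awat2 at E18.5, the lowest values of the 9.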
